A study of Mus musculus with 6 samples.

Results

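The DNA replication and S-phase genes described here are a list of 34 genes chosen for their textbook roles in origin licensing, the replication fork, nucleotide synthesis and E2F control. The choice used no measured value as a rule, though earlier results of these data were known when it was made. Of these, 33 had a probe set annotated to that gene alone, out of 18193 such genes in all, and Chaf1a was not analysed here. Each gene was read from its probe set of highest mean over the 6 arrays. The arrays held RNA of primary mouse fibroblasts, 3 samples with the Delta9 allele of Lmna and 3 wild-type (WT) samples derived from siblings, all of strain C57bl6X129S3/J. Lmna encodes lamins A and C of the nuclear lamina. All 6 samples were passaged at confluency on the schedule of the 3T3 protocol, and the series' design gives passage 3 and 72 hours without serum before RNA was taken, so cells of both genotypes had been deprived of serum. The labels call the cells adult, the design text calls them post-natal, and neither gives zygosity, body site or the number of animals. P-values therefore measure the spread between these samples, and 3 arrays per group limit their precision.

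Replication starts when the origin recognition complex, Cdc6 and Cdt1 load the Mcm2 to Mcm7 helicase on DNA in G1. Cdc45 and the GINS complex then turn the loaded helicase into an active one, the polymerases copy the strands with the PCNA clamp, and E2F factors, released from retinoblastoma-family proteins by cyclin E-Cdk2, drive transcription of most of these genes. Fibroblasts without serum normally leave the cycle and hold these genes at low levels, and a bulk measurement cannot tell fewer cycling cells from less RNA per cell. In the samples here 7 of the 33 measured members lay below the median level of all genes, and Pcna was at percentile 98.6. No sample with serum was measured, so these ranks do not show whether the genes were low for these cells.

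Some properties of the whole set of arrays bear on the values below. Lmna read 7.07, 6.95 and 6.11 in the Delta9 samples, against 8.35, 8.89 and 8.78 in the WT samples (log2, difference -1.96, SE 0.28, limma adjusted p = 0.0899); where its probe set lies relative to the Delta9 change is not known here. All 11 measured fibroblast markers lay above the median level of all genes, and all 11 had lower means in Delta9 (median difference -0.24), with Col1a1, the main collagen chain of connective tissue, at -0.26 (SE 0.08). The 18 macrophage markers were also clearly present, 17 of them above that median, and averaged 9.53 to 10.09 in Delta9 against 7.42 to 9.62 in WT (log2). Endothelial, epithelial and skeletal muscle lists lay mostly below the median level, with 3 of 8, 1 of 8 and 3 of 8 markers above it. The poly-A spike-in transcripts, which are added to RNA before labelling, averaged 5.86, 5.87 and 5.09 on Delta9 replicates 1, 2 and 3, against 4.78, 5.71 and 5.46 on WT replicates 1, 2 and 3 (log2). Delta9 replicate 3 and WT replicate 1 were thus the arrays of lowest spike-in signal.

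In the Delta9 samples, replication genes lay on average a little higher than in the WT samples, and none of the differences passed the test over all genes. Fibroblast and macrophage markers were both present, and which cells carried the differences was not measured. The difference was above 0 for 28 of the 33 genes, against 46.8% of all genes, and the median was 0.29 log2, against -0.01 over all genes. By limma with Benjamini-Hochberg adjustment over all genes, 0 of 33 passed the threshold of 0.05, where 0.0605% of all genes did, and the lowest adjusted p among the members was 0.360, for Pcna. At an unadjusted p under 0.05, 3 members were higher and 0 lower, where 4.54% of all genes were higher and 6.06% lower, so 9.09% of members against 10.6% of all genes passed in either direction. The 95% interval of the difference included 0 for 30 members and included a 1.5-fold higher level for 28, so at this number of arrays a difference of that size could not be told from none for most of them.

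The 3 Delta9 values lay above the 3 WT values for 6 members, Pcna, Rfc3, Gins2, Pola1, Fen1 and E2f1, which is 18.2% of members against 7.27% of all genes. The reverse held for 0 members, against 9.99% of all genes. Of these 6, 5 act at the replication fork, the role of 12 of the 33 measured members. Whether separation goes with role was not tested.

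**Figure D1:**
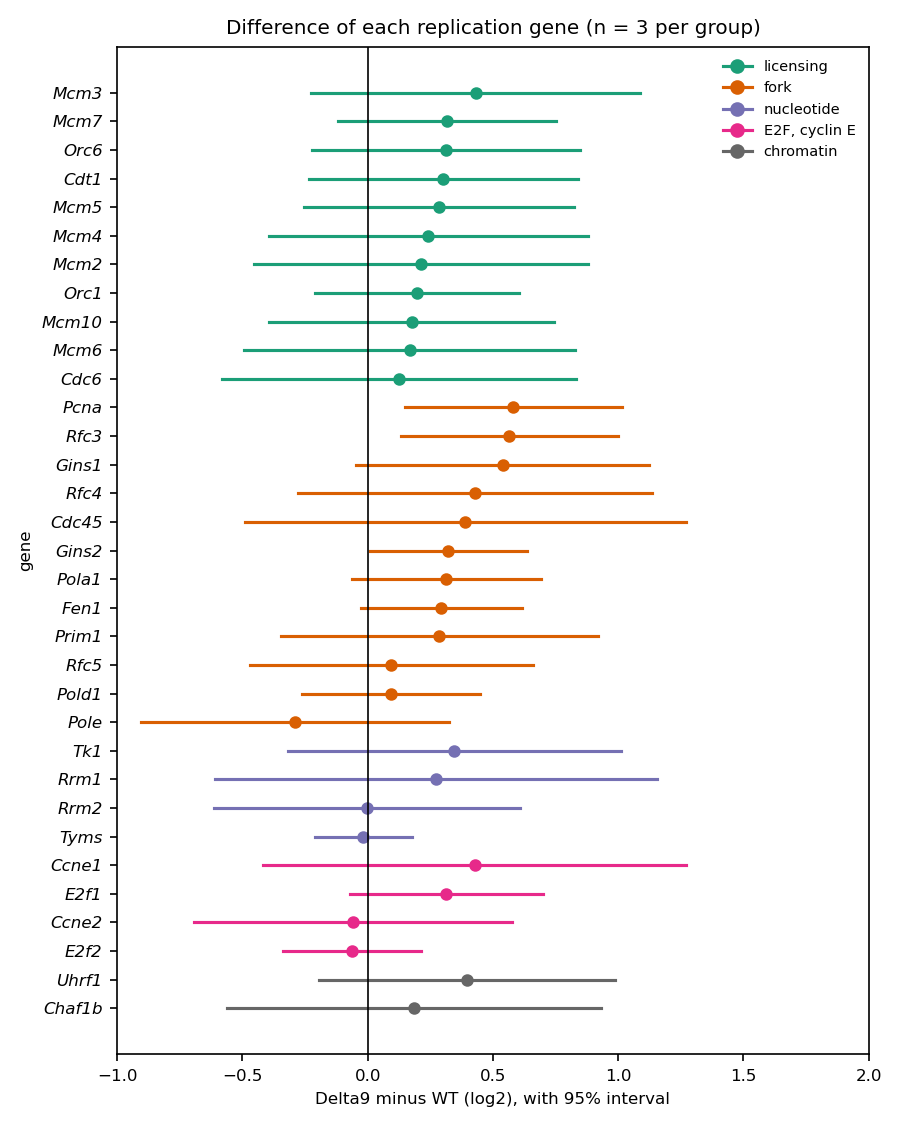
Difference of each of the 33 measured replication genes, Delta9 minus WT in log2, with its 95% interval from limma (n = 3 per group), coloured by role. Points run from -0.29 (Pole) to 0.58 (Pcna), and only the intervals of Pcna, Rfc3 and Gins2 leave out 0.

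Promoters of part of these genes hold E2F or CCAAT letters. Since E2F control was among the roles the genes were chosen for, the E2F matches are no independent property of the list. RefSeq promoters of GRCm38.p6 (250 bases before to 50 after the start of the gene) were matched for 28 of the 33 measured members. The E2F octamers TTTCCCGC, TTTCGCGC, TTTGCCGC and TTTGGCGC, on either strand, were found in promoters of 12 of these 28 genes (42.9%), against 2.60% of 27025 genes. The pentamer CCAAT, the core bound by NF-Y, was found on either strand for 17 of the 28 (60.7%), against 41.1% of genes. Neither was found for 8 of the 28, among them Fen1 and E2f1, and both for 9. In the sequences printed below no octamer overlaps a CCAAT. Median GC content was 57.5% for the member promoters and 52.7% for all promoters. The 12 members with an E2F octamer had a median difference between Delta9 and WT of 0.29, with 11 of 12 above 0, and the 16 without had one of 0.29, with 14 of 16 above 0. A match is a run of letters, and binding was not measured.

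The promoters of 4 genes are shown to set the letters beside genes described below: Pcna and Rfc3 had the largest differences of all members, Mcm3 the largest of the licensing genes, and Pola1 is a polymerase subunit whose groups did not overlap, if narrowly. Capitals mark the E2F octamers and CCAAT, as read on the printed strand, and each sequence is given 5′ to 3′ along its gene.
Rfc3, chr5:151651159-151651458, minus strand: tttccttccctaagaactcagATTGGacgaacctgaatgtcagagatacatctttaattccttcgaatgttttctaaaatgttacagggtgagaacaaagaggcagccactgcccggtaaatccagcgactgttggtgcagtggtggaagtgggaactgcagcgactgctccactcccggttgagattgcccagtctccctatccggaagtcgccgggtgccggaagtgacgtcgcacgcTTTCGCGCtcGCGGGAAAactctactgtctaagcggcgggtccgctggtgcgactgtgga
Pola1, chrX:93632106-93632405, minus strand: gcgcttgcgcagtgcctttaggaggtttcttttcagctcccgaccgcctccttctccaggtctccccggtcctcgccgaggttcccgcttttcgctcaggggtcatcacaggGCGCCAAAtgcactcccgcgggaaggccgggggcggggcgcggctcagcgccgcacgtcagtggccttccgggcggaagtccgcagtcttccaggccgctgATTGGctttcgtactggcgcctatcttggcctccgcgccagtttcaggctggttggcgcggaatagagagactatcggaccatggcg
Mcm3, chr1:20820263-20820562, minus strand: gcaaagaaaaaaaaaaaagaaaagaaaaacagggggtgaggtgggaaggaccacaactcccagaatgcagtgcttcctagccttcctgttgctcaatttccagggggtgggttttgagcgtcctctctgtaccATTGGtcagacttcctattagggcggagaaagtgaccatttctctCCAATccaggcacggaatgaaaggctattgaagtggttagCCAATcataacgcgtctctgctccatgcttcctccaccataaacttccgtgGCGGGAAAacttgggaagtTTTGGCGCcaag
Pcna, chr2:132253131-132253430, minus strand: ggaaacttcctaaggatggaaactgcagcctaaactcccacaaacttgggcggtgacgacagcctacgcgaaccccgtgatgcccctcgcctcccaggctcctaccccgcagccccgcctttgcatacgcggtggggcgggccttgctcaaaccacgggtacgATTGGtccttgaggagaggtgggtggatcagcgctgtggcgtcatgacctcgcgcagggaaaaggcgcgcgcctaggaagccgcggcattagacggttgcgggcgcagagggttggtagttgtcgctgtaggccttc
The Rfc3 promoter holds an E2F octamer whose first base lies 10 bases before the start and another whose first base lies 1 base after it, on the opposite strand. Those of Mcm3 begin 20 and 39 bases after the start, and that of Pola1 begins 138 bases before it. In the Pcna window none of these octamers was found, and CCAAT lies on the opposite strand, beginning 87 bases before the start.

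The licensing genes all had means above those of WT, and none passed the test. The 11 differences ran from 0.12 (Cdc6) to 0.43 (Mcm3) log2, with a median of 0.24. The groups separated in 0 of the 11, where 7.27% of all genes separated higher and 9.99% lower. The direction turned for 5 of them: Cdt1 and Orc1 were both at -0.11 and Mcm10 at -0.052 with the macrophage mean as a covariate, Mcm10 was at -0.087 with array weights and -0.040 without WT replicate 3, and Mcm6 and Cdc6 were at -0.12 and -0.16 without Delta9 replicate 2. The 6 subunits of the Mcm2 to Mcm7 helicase, which work as 1 ring, differed by 0.17 to 0.43. Mcm3 read 7.23, 7.69 and 6.68 in Delta9 and 6.48, 7.07 and 6.77 in WT (log2; difference 0.43, SE 0.28, adjusted p = 0.625). Mcm7 read 9.06, 9.21 and 8.59 in Delta9 and 8.54, 8.79 and 8.58 in WT (difference 0.32, SE 0.18). In both, Delta9 replicates 1 and 2 lay above every WT value and Delta9 replicate 3 lay among the WT values. Mcm2 followed with 7.92, 7.92 and 7.04 in Delta9 and 7.05, 7.65 and 7.54 in WT (difference 0.21, SE 0.28). Mcm4 had 7.44, 7.70 and 6.69 in Delta9, against 6.88, 7.28 and 6.95 in WT (0.24, SE 0.27). For both genes Delta9 replicate 3 was the lowest of the 6 arrays. Mcm5 had 8.23, 8.41 and 7.82 in Delta9, against 7.94, 8.18 and 7.49 in WT (0.28, SE 0.23). Mcm6 had 8.73, 9.37 and 8.29 in Delta9, against 8.46, 8.93 and 8.50 in WT (0.17, SE 0.28). Here too the groups overlapped, and the Mcm6 value of Delta9 replicate 2 stood above the rest.

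The loading factors differed by as little. Cdt1, which brings the helicase to the origin, differed by 0.30 (SE 0.23), and its highest value was in WT replicate 1. Cdc6, its partner in loading, differed by 0.12 (SE 0.30). Orc6 and Orc1, subunits of the origin recognition complex, differed by 0.31 (SE 0.23) and 0.20 (SE 0.17). Mcm10, which helps to fire the loaded helicase, differed by 0.17 (SE 0.24). Cdc6 and Orc1 were dim, below the median level of all genes.

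Fork genes held the largest differences. Of the 12, 11 had means above those of WT, against 46.8% of all genes, with a median difference of 0.32 log2. Groups separated for 5, all higher in Delta9, where 7.27% of all genes did so. Of the 11, Rfc5 turned to -0.10 without Delta9 replicate 2 and to -0.02 without WT replicate 1. Pcna, the sliding clamp that holds polymerases on DNA, read 10.86, 11.20 and 10.64 in Delta9 and 10.28, 10.58 and 10.09 in WT. Its means were 10.90 ± 0.28 in Delta9 and 10.32 ± 0.24 in WT (SD, n = 3 each), a difference of 0.58 (SE 0.18) or 1.496-fold, with a 95% interval of 1.11 to 2.02 and an adjusted p of 0.360 by limma. Every Delta9 value lay above every WT value, though the lowest Delta9 value exceeded the highest WT value by only 0.06. Rfc3, a subunit of the clamp loader that places PCNA on DNA, read 6.33, 6.60 and 6.08 in Delta9 and 5.76, 5.60 and 5.96 in WT. It differed by 0.57 (SE 0.18), or 1.48-fold (95% interval 1.10 to 1.996, limma adjusted p = 0.368). Its second probe set differed by 0.69 (SE 0.24). The other loader subunits differed less: Rfc4 by 0.43 (SE 0.30) and Rfc5 by 0.09 (SE 0.24), with overlapping groups.

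Gins2, a subunit of the GINS complex of the active helicase, had the widest gap between the groups, 0.17, among the separated genes. It read 6.98, 7.20 and 7.0003 in Delta9 and 6.71, 6.81 and 6.70 in WT, a difference of 0.32 (SE 0.13, limma adjusted p = 0.463), and its second probe set differed by 0.53 (SE 0.16). Gins1 of the same complex differed by 0.54 (SE 0.25), with Delta9 replicate 3 among the WT values. Cdc45, which joins GINS and the Mcm ring, had the widest interval of the fork genes, from -0.49 to 1.27 around 0.39 (SE 0.37), and was dim. Pola1, the catalytic subunit of the polymerase that begins each strand, read 5.39, 5.82 and 5.50 in Delta9 and 5.22, 5.37 and 5.18 in WT (difference 0.31, SE 0.16). Its groups were only 0.02 apart. Prim1, the primase subunit that works with it, differed by 0.29 (SE 0.27). Fen1, the nuclease that trims Okazaki fragments, read 8.38, 8.63 and 8.52 in Delta9 and 8.33, 8.25 and 8.06 in WT (difference 0.29, SE 0.14). Its second probe set differed by 0.72 (SE 0.25).

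The catalytic subunits of the other replicative polymerases did not share this pattern of separation. Pole, of the leading-strand polymerase, was the fork gene with a mean below that of WT, at 5.44, 5.89 and 4.86 in Delta9 and 5.53, 5.82 and 5.70 in WT (difference -0.29, SE 0.26). Its low mean in Delta9 came with the value of replicate 3, and without that sample the difference was -0.02. Pold1, of the lagging-strand polymerase, differed by 0.09 (SE 0.15).

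**Figure D2:**
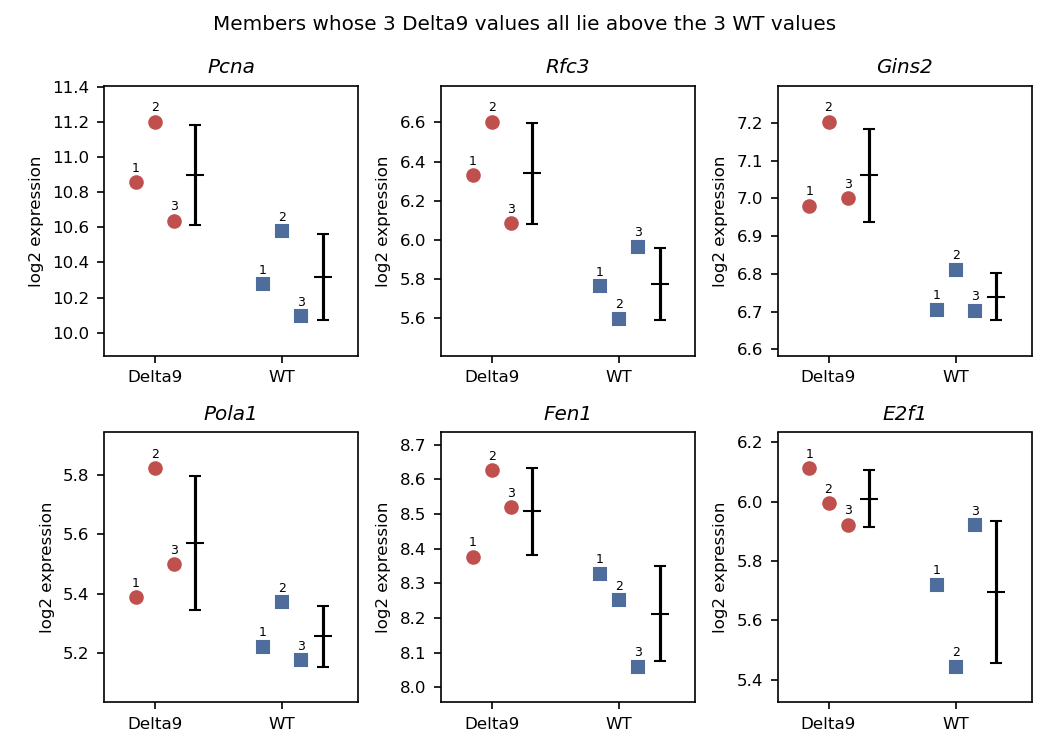
Log2 expression of the 6 members whose groups do not overlap, for 3 Delta9 samples (circles, numbered by replicate) and 3 WT samples (squares), with the mean and SD of each group as bars; each panel has its own axis, which does not start at 0. The lowest Delta9 value exceeds the highest WT value by 0.17 for Gins2, 0.12 for Rfc3 and 0.06 or less for the other 4.

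In the nucleotide synthesis genes Rrm1, Rrm2 and Tk1 the Delta9 samples lay far apart. Rrm1, the large subunit of ribonucleotide reductase, read 9.04, 9.06 and 7.78 in Delta9 and 7.90, 8.59 and 8.57 in WT (difference 0.27, SE 0.37). Rrm2, the small subunit whose level normally follows S phase, read 8.80, 8.93 and 8.02 in Delta9 and 8.35, 8.58 and 8.82 in WT (difference -0.00, SE 0.26). For both, replicate 3 was the lowest of the 6 arrays while the other Delta9 replicates were near or at the top. Tk1, the thymidine kinase of S phase, read 7.71, 7.75 and 6.82 in Delta9 and 6.97, 7.39 and 6.87 in WT (difference 0.35, SE 0.28), again with replicate 3 lowest. Tyms, thymidylate synthase, read 2.64, 2.69 and 2.69 in Delta9 and 2.60, 2.68 and 2.79 in WT, and its 4 probe sets all lay near the bottom of the scale, so its change could not be judged here.

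Of the regulators, E2f1 and Ccne1 had means above those of WT and Ccne2 and E2f2 means below. E2f1, an activator of the program, read 6.11, 5.99 and 5.92 in Delta9 and 5.72, 5.44 and 5.92 in WT (difference 0.31, SE 0.16, limma adjusted p = 0.546). Its groups were separated by 0.0015 log2, between Delta9 replicate 3 and WT replicate 3, and its next probe set, of similar signal, differed by 0.01 (SE 0.15). Ccne1, cyclin E1, read 6.71, 6.62 and 5.64 in Delta9 and 5.31, 6.11 and 6.26 in WT (difference 0.43, SE 0.36). The low samples of Ccne1 were Delta9 replicate 3 and WT replicate 1, and the groups overlapped. E2f2 read 4.16, 4.34 and 4.32 in Delta9 and 4.34, 4.35 and 4.31 in WT (difference -0.06, SE 0.12). Ccne2, cyclin E2, read 2.97, 3.62 and 2.496 in Delta9 and 2.92, 3.29 and 3.05 in WT (difference -0.06, SE 0.27). E2f2 and Ccne2 were below the median level of all genes, and Delta9 replicates 2 and 3 were the highest and lowest for Ccne2.

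Among genes of chromatin copying, Uhrf1, which brings the maintenance DNA methyltransferase to newly copied DNA, read 6.43, 6.63 and 5.66 in Delta9 and 5.81, 5.87 and 5.84 in WT (difference 0.40, SE 0.25). The WT samples were nearly equal (SD 0.03) and the Delta9 samples lay on both sides of them (SD 0.51). Chaf1b, a subunit of the histone chaperone CAF-1, read 4.91, 5.33 and 4.26 in Delta9 and 4.17, 4.94 and 4.84 in WT (difference 0.18, SE 0.32), with wide overlap. Without Delta9 replicate 2 or WT replicate 1 it differed by -0.07 or -0.06.

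**Figure D3:**
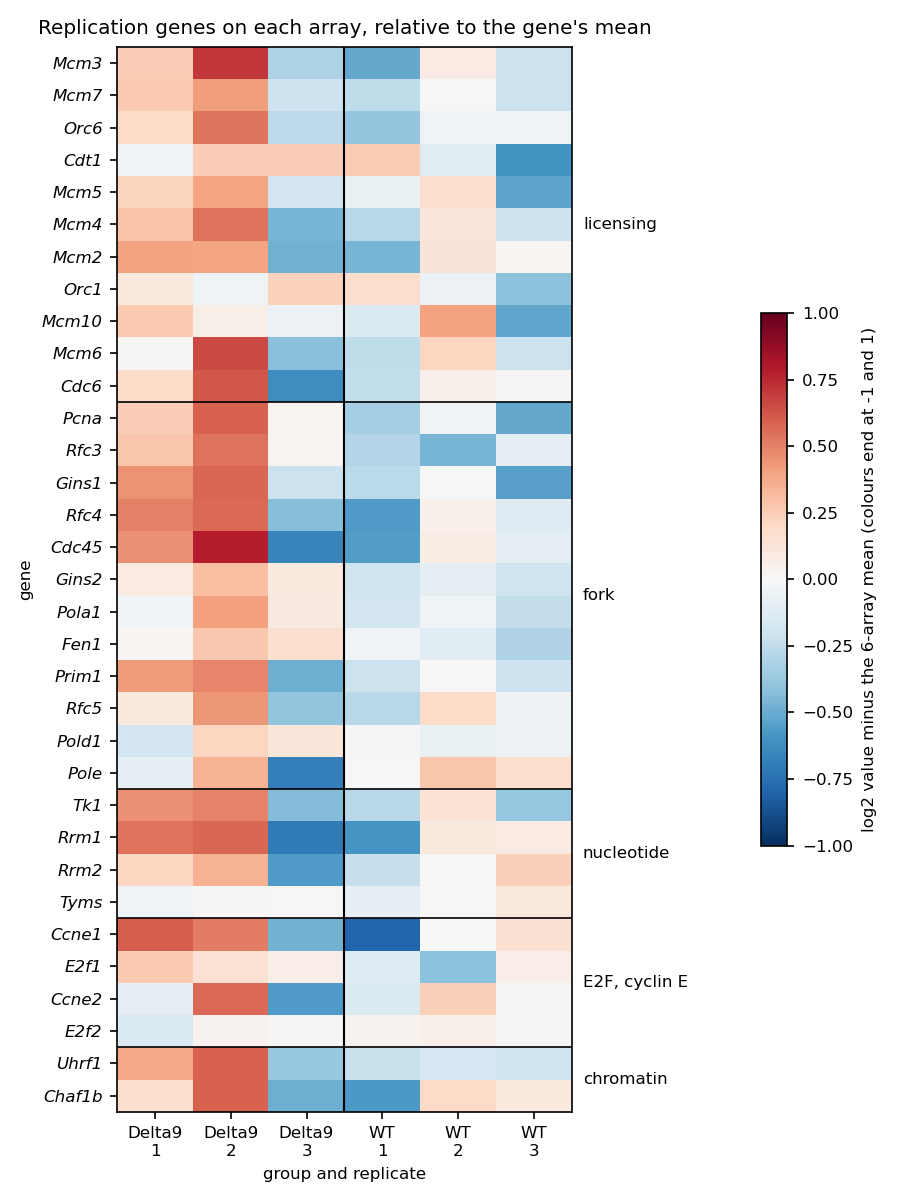
Log2 value of each of the 33 members on each array minus that gene's mean over the 6 arrays (red above, blue below), in rows ordered by role and then by difference, with Delta9 replicates left of WT replicates. The column of Delta9 replicate 2 is the highest for 25 members, and the columns of Delta9 replicate 3, WT replicate 1 and WT replicate 3 have means below 0 (-0.25, -0.25 and -0.15).

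Delta9 replicates 1 and 2 carried the highest member means. Relative to the mean of the 6 arrays, the member mean was 0.20, 0.42 and -0.25 in Delta9 replicates 1, 2 and 3, against -0.25, 0.03 and -0.15 in WT replicates 1, 2 and 3 (log2). In each of the 5 roles Delta9 replicate 2 had the highest mean and Delta9 replicate 1 the next, while the order of the lower arrays differed by role. In licensing WT replicate 3 was lowest, at -0.27, against -0.23 in Delta9 replicate 3 and -0.20 in WT replicate 1, and in the E2F and cyclin E genes WT replicate 3, at 0.05, lay above WT replicate 2, at -0.03. Delta9 replicate 2 had the highest value of 25 of the 33 members, against 13.2% of all genes. Delta9 replicate 3 was the lowest of the Delta9 samples for 25 members, against 43.1% of all genes, and the lowest of all 6 arrays for 13 (39.4%), against 25.1%. WT replicate 3 was the lowest of the 6 for 9 members (27.3%), against 15.2% of all genes, and WT replicate 1 for 7 (21.2%), against 19.3%. The Delta9 samples accordingly varied more: the median SD of the members was 0.42 in Delta9 and 0.24 in WT, where all genes had 0.16 in both, and the SD was larger in Delta9 for 26 members (78.8%, against 52.8% of all genes). The 33 genes were read from the same 6 samples, so these counts describe the samples and are not independent observations.

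Apart from the lowest 2, which changed places, the arrays had the same order by the mean over all members as by spike-in signal. Between the arrays of lowest spike-in signal, Delta9 replicate 3 and WT replicate 1, the members differed by a median of 0.05 log2, and 17 of 33 were higher in Delta9, against 49.4% of all genes. This pair allows no test. Within the other 4 arrays, Delta9 replicates 1 and 2 against WT replicates 2 and 3, the median was 0.37, against -0.02 over all genes, and 30 of 33 were above 0, against 46.3%. There 23 members (69.7%) had both Delta9 values above both WT values, against 22.9% of all genes, and 16 were higher at an unadjusted p under 0.05, against 8.17%. By limma 0 of 33 passed after adjustment, where 0.335% of all genes did, and the lowest adjusted p was 0.136, for Rrm1 (difference 0.47, SE 0.09). Gins1 had the largest difference there, at 0.78 (SE 0.22), and Uhrf1 had 0.67 (SE 0.14). In the pair of low spike-in signal Gins1 differed by 0.06 and Uhrf1 by -0.15, whereas Pcna differed by 0.36 and Rfc3 by 0.32. With the spike-in split as a block over all 6 arrays, 9 members were higher at an unadjusted p under 0.05, against 9.01% of all genes, and 0 passed after adjustment, against 0.819%. Without Delta9 replicate 3 the median was 0.46, 17 members were higher at an unadjusted p under 0.05, against 6.75% of all genes, and 0 passed after adjustment, against 0.445%.

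In these 4 arrays the quality of the RNA signal also differed between the genotypes. The 3′ minus 5′ signal of the Gapdh control was 0.25 and 0.23 log2 in Delta9 replicates 1 and 2, against 0.49 and 0.51 in WT replicates 2 and 3, so genotype and this measure cannot be told apart there. The remaining arrays, Delta9 replicate 3 and WT replicate 1, both had 0.57. Over all 6 arrays the Gapdh measure rose in the order in which spike-in signal fell. It thus also shared the members' order apart from the lowest arrays. The 3′ minus 5′ signal of the actin control was 0.68, 0.51 and 0.84 in Delta9 replicates 1, 2 and 3. In WT replicates 1, 2 and 3 it was 0.86, 0.82 and 1.41. Macrophage markers averaged 9.71, 9.53 and 10.09 in Delta9, against 9.62, 8.89 and 7.42 in WT. Delta9 replicate 3, with the highest macrophage mean, had the lowest member mean, at -0.254 relative to the 6 arrays, close to -0.247 in WT replicate 1. WT replicate 3, with the lowest macrophage mean, also had a member mean below 0, at -0.15. The macrophage mean went partly with genotype, so a fit of both on these arrays cannot tell them apart. With the macrophage mean as a covariate the median difference of the members was 0.37, against 0.29 without it. There 0 passed, against 0.011% of all genes, and 28 of 33 were above 0, as without it. Ccne1 moved from 0.43 to 0.97 and Rrm1 from 0.27 to 0.72, while Mcm5 moved from 0.28 to 0.099. Cdt1, Orc1 and Mcm10 turned below 0, and Rrm2, Tyms and Ccne2 turned above 0. The part of spike-in signal, RNA quality or macrophage content in the members' values was not tested beyond these comparisons.

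**Figure D4:**
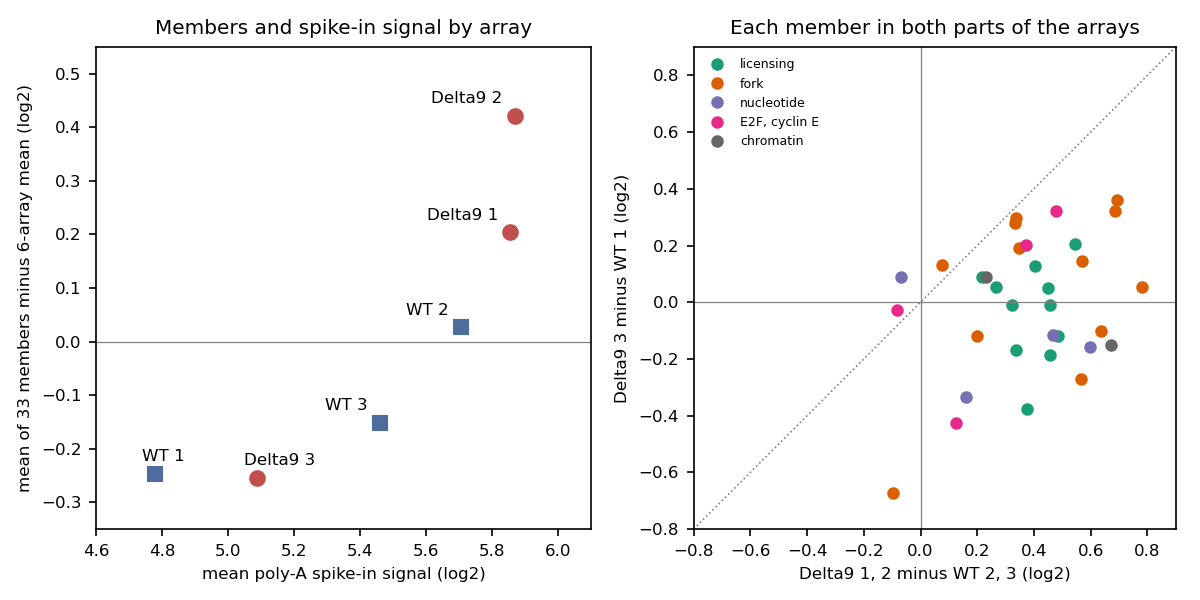
Left, the mean of the 33 members on each array relative to the 6-array mean (log2) against the mean poly-A spike-in signal (log2), Delta9 as circles and WT as squares, labelled by replicate. Right, each member's difference between Delta9 replicate 3 and WT replicate 1 against its difference within the other 4 arrays (log2, coloured by role, dotted line at equality); most points lie below the line, with medians of 0.05 and 0.37.

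Other genes of the same process also lay mostly a little higher in Delta9. Of 48 measured replication genes outside the list, 40 had higher means in Delta9 (83.3%, against 46.8% of all genes), with a median of 0.15. By limma 0 passed. At an unadjusted p under 0.05, 3 were higher (6.25%, near the 4.54% of all genes) and 0 were lower, against 6.06% of all genes. The 3 were Rnaseh2a, a subunit of the nuclease that removes RNA from DNA (0.43, SE 0.15), Pold3, an accessory subunit of the lagging-strand polymerase (0.36, SE 0.15), and Gmnn, geminin, the inhibitor of Cdt1 (0.55, SE 0.23). Relative to their 6-array mean they averaged 0.13, 0.30 and -0.19 across the Delta9 replicates, against -0.22, 0.02 and -0.04 across the WT replicates, the order of arrays seen for the members except that WT replicate 1 was lowest.

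Of 27 mitosis and G2/M genes, 26 had higher means in Delta9 (96.3%, against 46.8% of all genes, median 0.23), with 0 past the threshold by limma. At an unadjusted p under 0.05, 1 was higher (3.7%), no larger a share than the 4.54% of all genes. That gene, Cenpa, the histone variant of the centromere, differed by 0.66 (SE 0.18, adjusted p = 0.297). Relative to their 6-array mean they averaged 0.30, 0.54 and -0.45 across the Delta9 replicates, against -0.48, 0.10 and -0.01 across the WT replicates, with the same 2 arrays lowest.

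Regulators upstream of replication lay in both directions. Of 26 E2F family members, pocket proteins, G1 cyclins and kinases, 15 had higher (57.7%, against 46.8% of all genes) and 11 lower means in Delta9, with a median of 0.07, and 0 passed by limma. At an unadjusted p under 0.05, 2 were higher (7.69%, against 4.54%) and 1 was lower (3.85%, against 6.06%). Skp2, the ubiquitin ligase subunit that removes p27, read 6.28, 6.47 and 6.03 in Delta9 and 5.63, 5.78 and 5.62 in WT, without overlap (difference 0.58, SE 0.16, adjusted p = 0.293). Cdc25a, the phosphatase that activates Cdk2, differed by 0.46 (SE 0.17), and Tfdp2, a dimer partner of E2F, by -0.35 (SE 0.14). Of 12 CDK inhibitors and quiescence genes, 6 had higher and 6 lower means (median 0.06, range -1.25 to 0.82), and 0 passed by limma. At an unadjusted p under 0.05, 1 was higher (8.33%, against 4.54%), the antiproliferative gene Btg2 (0.82, SE 0.34), whose groups overlapped. Groups separated for 1 higher gene, Btg1 (0.28), and 1 lower gene, Foxo1 (-0.34), where 7.27% and 9.99% of all genes did. Relative to their 6-array mean, the 12 genes of this list ran against the members in both arrays of low spike-in signal, at 0.17 in Delta9 replicate 3 and 0.17 in WT replicate 1, with -0.13 to -0.03 on the other 4.

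Brighter probe sets of a gene mostly had the same sign but often differed in size. The members had 73 probe sets, of which 40 were not used, on 26 genes. Of the 21 unused ones above the median level of all genes, 19 had the sign of the used one. The size moved by more than 1.5 times for Fen1 (0.72 beside 0.29 in the used one), Gins2 (0.53 beside 0.32), Rrm2 (0.39 beside -0.00) and E2f1 (0.01 beside 0.31), among others. Across all 40, 29 had the sign of the used probe set and 11 the opposite one, mostly dim ones. When every probe set was tested, 0 of the 73 passed by limma and 6 had an unadjusted p under 0.05. Among the 6 were both probe sets of Rfc3 and a dim one of Mcm5, with a mean of 2.41 log2. The share over all probe sets was not computed, while 10.6% of all genes had such a p in the main fit.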

How the data were processed

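Trizol-extracted total RNA of 6 samples was labelled with biotin and hybridised to Affymetrix arrays, per the labels' protocols. The authors deposited log2 summaries of 45101 probe sets, with array medians of 3.36 to 3.43. The log2 scale was inferred from the range of the values, and the summarisation and normalization steps were not given in the sources used here. Probe sets were called dim when below the median of all genes.

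The 64 controls were not tested. Of the rest, 34945 had 1 gene symbol in the platform annotation, 932 several, and 9160 are unnamed here. All 33 members matched RefSeq (GRCm38.p6) by Entrez identifier. Genes were tested with limma 3.58.1 in R 4.3.3 (lmFit, eBayes with a variance trend) on the deposited values, unfiltered, with Benjamini-Hochberg adjustment over 18193 genes at 0.05. Differences are Delta9 minus WT. The steps were tested on simulated data with independent noise and added changes larger than any member difference. The simulation therefore does not cover differences as small as those described here. A first limit on the share of changes recovered was missed in some runs and was then lowered.

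The members were chosen by textbook role and not by their values, but they, the related lists, the naming rule and the alternatives were chosen with earlier results of these data known. Sample values are given for members with an unadjusted p under 0.05, separated groups or the 2 largest differences in each direction of their role, and for Mcm2 to Mcm7 and E2f1; related lists give up to 3 genes of lowest p. Of the 17 alternatives, 6 leave out 1 sample, and the others change the scale, filter, probe sets, variance model, weights, block or covariate. Figures were drawn with matplotlib 3.10.9.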

Additional observations from a re-analysis of the deposited data

How the results depend on the processing

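Under all 17 alternatives 0 members passed the threshold by limma. At an unadjusted p under 0.05 there were 0 to 17, all higher, where 2.91% to 9.05% of all genes were higher. The spread of the member mean between arrays of a genotype (SD 0.26) was nearly as large as the main median difference, 0.29. A limit of 1 such SD is therefore wide, and staying within it does not show stability. The median difference of the members stayed within this limit and above 0. It ran from 0.16 (without Delta9 replicate 2) to 0.46 (without Delta9 replicate 3) with single samples left out, and from 0.21 to 0.37 under the others. Without Delta9 replicate 3, 17 members had an unadjusted p under 0.05, all higher, against 6.75% of all genes higher. Without Delta9 replicate 2 there were 0, against 3.78% of all genes higher.

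The count of all genes past the threshold, 11, was 139 with array weights, 149 with the spike-in split as a block, 61 within the 4 arrays with more spike-in signal, 2 with the macrophage mean as a covariate, and 1 to 81 with single samples left out. With the replicate number as a block it was 0. Then 2 members were higher at an unadjusted p under 0.05, against 2.91% of all genes, where the main fit had 3, against 4.54%. Deviations of samples with the same number correlated at -0.40, 0.17 and -0.43, and no sample correlated best with its own number. The highest value, 0.59, was between Delta9 replicate 3 and WT replicate 1, the arrays of low spike-in signal. Whether the numbers pair the samples cannot be decided from these values, since they also carry such differences between arrays.

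Several members, with differences of up to 0.30, changed sign. With array weights Mcm10 differed by -0.087, Rrm2 by 0.19 and Ccne2 by 0.038. With the macrophage mean as a covariate Mcm10 differed by -0.052, Cdt1 by -0.11, Orc1 by -0.11, Rrm2 by 0.33, Tyms by 0.071 and Ccne2 by 0.10. Within the 4 arrays Rrm2 differed by 0.16 and Ccne2 by 0.13. With all probe sets of a gene averaged, Rrm2 differed by 0.15 and E2f2 by 0.069. Without _x_at and _s_at probe sets Rrm2 differed by 0.058, and with quantile normalization Tyms by 0.014. With single samples left out, Mcm6 ran from -0.12 to 0.42, Mcm10 from -0.040 to 0.42, Cdc6 from -0.16 to 0.46, Rrm2 from -0.18 to 0.28, Tyms from -0.062 to 0.033, Rfc5 from -0.10 to 0.32, Ccne2 from -0.35 to 0.21 and Chaf1b from -0.065 to 0.47. None of these differences was past the threshold in any of these fits, and the cause of the changes was not tested. Signal close to the bottom of the scale limits Tyms and Ccne2 most.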
